A study of Parachlorella kessleri with 6 samples.

Results

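The genes described here are the protein kinases and calcium-binding proteins through which a cell could read salt, in the single-celled green alga Parachlorella kessleri, a relative of Chlorella. They comprised 71 of the 22972 assembled genes. A gene was taken when the description of its best Swiss-Prot match named a mitogen-activated protein (MAP) kinase, SNF1, a calcium-dependent protein kinase, calcineurin, a CBL-interacting kinase, calmodulin or the kinase TOR, or when a Pfam hit to an EF-hand was listed for it. The description chose 43 genes and the EF-hand hit 33, with 5 chosen by both, and no description named TOR. Expression values were not used in the choice, and a calcium-binding mitochondrial carrier and a kinesin-like calmodulin-binding protein were left out by their other domains. RNA-seq was carried out on 3 libraries of cells kept under salt stress and 3 libraries of cells kept under control conditions, for 2 days. The sources used here do not give the salt concentration, the medium or the strain. They do not say either whether the libraries came from separate cultures, and the p-values then describe the spread between libraries alone, which may be technical. Each library is a pool, so fewer cells of a kind and less RNA per cell cannot be told apart.

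Salt reaches a cell as an osmotic and an ionic stress, and in plants and algae both are known to raise free calcium in the cytosol. Calcium is read by proteins with EF-hands, helix-loop-helix folds that bind the ion: calmodulin and calcineurin B-like (CBL) proteins pass the signal to partner kinases, whereas calcium-dependent protein kinases (CDPK) carry EF-hands and a kinase domain in one chain. MAP kinases work as a relay in which a kinase kinase kinase (MAP3K) phosphorylates a kinase kinase (MAP2K) and that in turn a MAP kinase. SNF1 kinases (SnRK1 in plants) answer low energy, and their plant relatives SnRK2, named SRK2 in Arabidopsis and SAPK in rice, are activated by osmotic stress.

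Of the 71 genes, 59 had their closest match in a green alga in the NR protein database. The other 12 matched elsewhere or nowhere, and 5 of these were among the 6 genes with too few reads to test. A name is that of the best match, often in a land plant or an animal, and was not checked for function in this alga. Among the 6 untested genes, none had more than 10 counts in a library; they included a second SNF1 catalytic subunit KIN10 (TRINITY_DN4223_c0_g2), a calmodulin matching mung bean, and 3 genes with an S100-type EF-hand. Library totals ranged from 19849594 to 21654407 counts in salt and from 16460455 to 24065705 counts in control. Levels are given as CPM, a gene's counts scaled to a common library size with TMM factors. In log2 CPM, principal component 1 (83.0% of the variance) separated the conditions. Component 2 (10.4%) set both replicate 1 libraries apart from the other 4. For the genes named, results in replicates 2 and 3 alone are given where they change the call.

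More of these genes were lowered than raised in salt. Of the 65 tested, 32 were lowered (49.2%), 11 were raised (16.9%) and 22 were not called at an adjusted p of 0.05. Over all 11438 tested genes, 28.7% were called lowered and 29.1% raised, 57.8% in either direction. A change of at least 2-fold was called in 18 genes downward and 6 upward, where the shares over all genes were 17.7% and 15.9%. The 3 salt libraries all lay below the 3 control libraries in 36 of the 65 genes (32.6% of all tested genes) and all above in 11 (34.1%). The median log2 fold change was -0.40 over the 65 genes and 0.01 over all tested genes, -0.46 and 0.02 in the replicate 1 pair, and -0.31 and 0.03 in replicates 2 and 3. All 32 lowered and 11 raised genes kept their direction in both of these subsets. The subsets are parts of the libraries that gave the calls, so this is not a separate test. In replicates 2 and 3 alone, 30 of the lowered and all 11 raised genes were called; TRINITY_DN4900_c3_g1 (adjusted p = 0.177) and TRINITY_DN4877_c3_g3 (adjusted p = 0.0690) were not.

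With library totals alone as the scaling, without TMM factors, the split was 14 raised to 23 lowered among the 65 genes, 37.8% raised of those called, against 25.6% with TMM. That scaling moved the median of all genes by 0.18 on the log2 scale. Relative to the median of all genes, the 65 genes then lay at -0.42, against -0.41 with TMM. A scaling moves all genes by nearly the same amount, so this distance could hardly change and does not test the scaling.

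**Figure D1:**
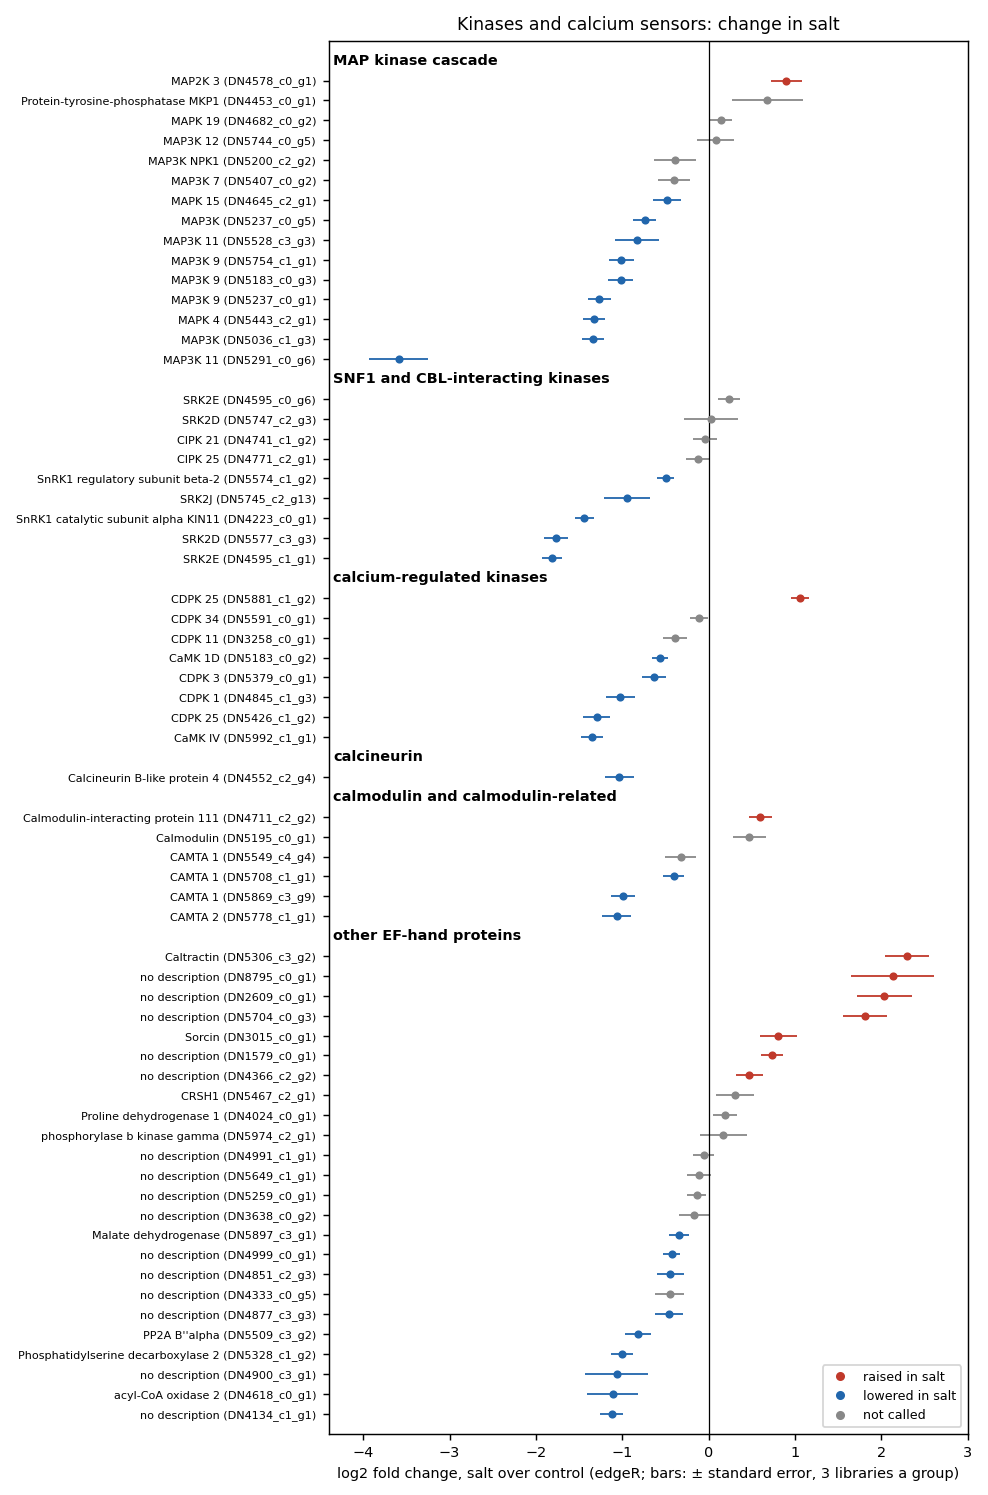
Log2 fold change in salt over control for 63 of the 65 tested genes, grouped by role, with bars of ± 1 standard error from the edgeR fit on 3 libraries a group; red points were called raised, blue lowered and grey not called. The kinases lie mostly left of 0, from -3.59 for a MAP3K, and the largest rise, 2.30, belongs to caltractin among the EF-hand proteins.

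**Figure D2:**
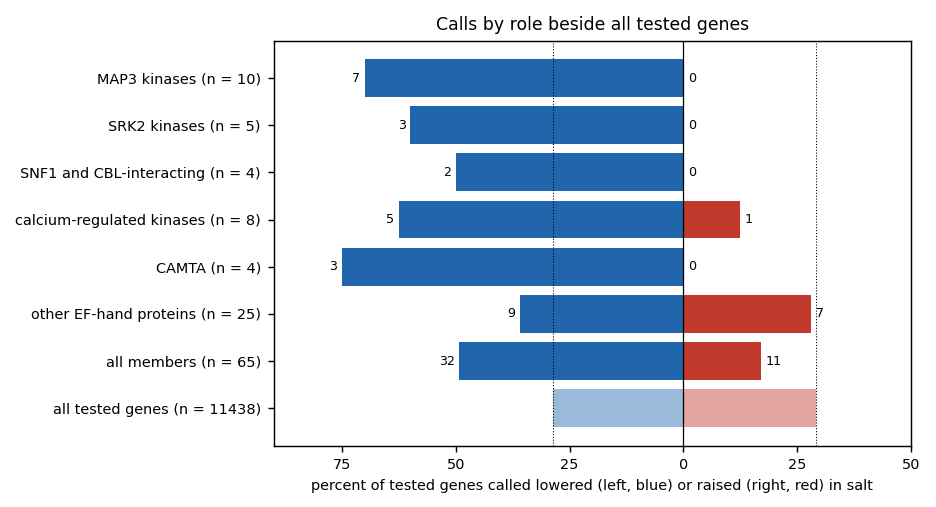
Share of tested genes called lowered (left) or raised (right) in salt, by role, with the number of genes at the end of each bar; the pale bar and the dotted lines give all 11438 tested genes. The MAP3 kinases had 7 lowered and 0 raised genes of 10, whereas the other EF-hand proteins had 9 lowered and 7 raised of 25.

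Of 25 tested EF-hand proteins outside the kinases and calmodulins, 7 were raised and 9 lowered, where 29.1% and 28.7% of all tested genes were. Calmodulin, the small sensor that binds and switches many target enzymes, was represented by TRINITY_DN5195_c0_g1, which held 191, 149.6 and 165 CPM in the salt libraries, against 156, 111 and 98.4 CPM in the control libraries. The salt libraries were mostly the higher ones, but salt replicate 2 lay below control replicate 1, and the difference was not called (log2 fold change 0.47 ± 0.19 (SE), adjusted p = 0.0747). It was called with the replicate number as a block (adjusted p = 0.0243), in replicates 2 and 3 alone (adjusted p = 0.00274) and without control replicate 1 (adjusted p = 0.00405). It was also called with library totals alone (adjusted p = 0.00859) or upper-quartile factors (adjusted p = 0.0217) as the scaling, each time raised. By FPKM, counts scaled by transcript length and depth, it was the most abundant calmodulin-related gene, at a mean of 153 over the 6 libraries. Its table entry carries no Pfam hit, although its closest match in Coccomyxa is described as an EF-hand protein. A second gene given the calmodulin label by KEGG, TRINITY_DN1579_c0_g1, held 22.9, 25.7 and 23.7 CPM in the salt libraries, against 13.7, 15 and 14.8 CPM in the control libraries. Its salt libraries were all higher and lay close together, and it was raised (log2 fold change 0.73 ± 0.13 (SE), adjusted p = 0.00270). Its closest STRING entry is a subunit of the dynein arm docking complex of flagella, so the calmodulin label rests on KEGG alone.

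The largest rise in the set was that of caltractin (TRINITY_DN5306_c3_g2), also called centrin, an EF-hand protein known from the basal bodies of green algae. It held 136, 216 and 248 CPM in the salt libraries, against 36.6, 48.8 and 36.7 CPM in the control libraries. Every salt library was well above every control library, with salt replicate 1 the lowest of the 3, and the gene was raised (log2 fold change 2.30 ± 0.25 (SE), adjusted p = 0.000338). Its predicted reading frame holds 3 EF-hand positions. In the replicate 1 pair the log2 fold change was 1.89, and in replicates 2 and 3 it was 2.44. With a mean of 151 FPKM it was also the most abundant of the EF-hand proteins outside the kinases and calmodulins.

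Genes with an EF-hand hit but no Swiss-Prot description supplied 3 more of the 4 largest rises among EF-hand proteins. TRINITY_DN8795_c0_g1, whose frame carries a single EF-hand and a pair of p25-alpha domains, the fold of a family known from brain and from flagellated cells, held 7.81, 18.7 and 23.1 CPM in the salt libraries, against 2.25, 5.35 and 3.71 CPM in the control libraries. Salt replicate 1 was the lowest of its group and control replicate 2 the highest of the other, yet the groups did not overlap and the gene was raised (log2 fold change 2.13 ± 0.48 (SE), adjusted p = 0.00780). TRINITY_DN2609_c0_g1, labelled by KEGG as the regulatory subunit B of calcineurin, the calcium-activated phosphatase, held 28.5, 39.4 and 53.4 CPM in salt, and 7.10, 13.5 and 8.93 CPM in control. This gene was raised as well, with both groups spread about 2-fold and no overlap (log2 fold change 2.03 ± 0.32 (SE), adjusted p = 0.00159). TRINITY_DN5704_c0_g3, known only by an EF-hand pair, had low levels of 4.54, 5.12 and 4.57 CPM in salt, and 1.34, 1.5 and 1.20 CPM in control. Its libraries were tight within each group, and it was raised (log2 fold change 1.81 ± 0.26 (SE), adjusted p = 0.00103).

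Sorcin, a penta-EF-hand protein that in mammals regulates calcium release, had its match in TRINITY_DN3015_c0_g1, with 68.9, 53.1 and 50.7 CPM in the salt libraries, against 23.8, 37.8 and 37 CPM in the control libraries. The groups did not overlap, and salt replicate 1 and control replicate 1 were the 2 most distant libraries. It was raised (log2 fold change 0.81 ± 0.22 (SE), adjusted p = 0.0162), a call that ended without salt replicate 1 (adjusted p = 0.0554). The seventh raised EF-hand gene, TRINITY_DN4366_c2_g2, has further reading frames with thioredoxin and WD40 hits, and its change was small (log2 fold change 0.47 ± 0.15 (SE), adjusted p = 0.0353). That call ended without control replicate 3 or without any 1 of the salt libraries, where the adjusted p ran from 0.0566 to 0.0914.

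Among the 9 lowered EF-hand proteins, several matched enzymes rather than sensors. Phosphatidylserine decarboxylase 2 (TRINITY_DN5328_c1_g2), which makes phosphatidylethanolamine and in plants carries EF-hands, held 67.2, 58.3 and 69.2 CPM in the salt libraries, against 115, 135 and 141 CPM in the control libraries. The salt libraries were all far below the control libraries, and it was lowered (log2 fold change -1.003 ± 0.13 (SE), adjusted p = 0.000627). The regulatory subunit B''alpha of protein phosphatase 2A (TRINITY_DN5509_c3_g2), a calcium-binding subunit of that phosphatase, held 59.3, 58.9 and 71.6 CPM in salt, and 133, 99.5 and 102 CPM in control. It too was lowered without overlap (log2 fold change -0.82 ± 0.16 (SE), adjusted p = 0.00376). Acyl-coenzyme A oxidase 2 (TRINITY_DN4618_c0_g1), a peroxisomal enzyme of fatty acid breakdown, held 36.7, 77 and 50.8 CPM in salt, and 151, 102 and 102 CPM in control. The salt libraries varied about 2-fold, and the call (log2 fold change -1.11 ± 0.29 (SE), adjusted p = 0.0151) ended without salt replicate 3 (adjusted p = 0.0586). A malate dehydrogenase, the undescribed TRINITY_DN4900_c3_g1 and 3 other undescribed genes were lowered too, with log2 fold changes from -1.06 to -0.34. Of these 5, only TRINITY_DN4999_c0_g1 kept its call without each library in turn, and that call ended with library totals alone (adjusted p = 0.110) and with the counts of its Trinity cluster, the entries that share an identifier but for its last part, summed (adjusted p = 0.912). With library totals alone none of the 5 was called. The malate dehydrogenase and TRINITY_DN4900_c3_g1 lost it in 4 of the 6 such fits, and TRINITY_DN4851_c2_g3 and TRINITY_DN4877_c3_g3 in 5, at adjusted p-values from 0.0509 to 0.168.

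Over the 25 EF-hand proteins the median change, on the log2 scale, was -0.14. With library totals alone as the scaling, 8 were raised and 4 lowered and the median turned to 0.05. The median of all genes was then 0.20. Relative to all genes, the EF-hand median was -0.15 with either scaling, a distance that a scaling can hardly change. The 9 not called included proline dehydrogenase 1 (TRINITY_DN4024_c0_g1), the first enzyme of proline breakdown, at 160.3, 129.7 and 115 CPM in salt, and 119, 113 and 124 CPM in control. Here the groups overlapped (log2 fold change 0.19 ± 0.14 (SE), adjusted p = 0.292), and a rise was called with library totals alone (adjusted p = 0.0452). CRSH1, a calcium-regulated enzyme of guanosine tetraphosphate synthesis in plant chloroplasts, was not called either, at a log2 fold change of 0.31 ± 0.22 (SE).

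**Figure D3:**
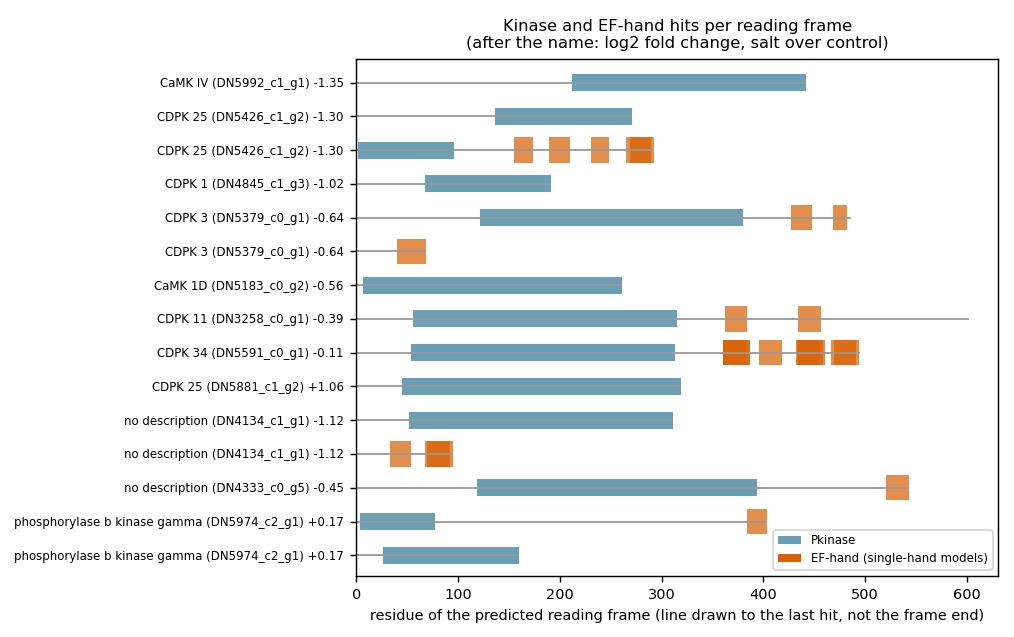
Protein kinase hits (blue) and single EF-hand hits (orange) along each predicted reading frame, in residues, of the 8 calcium-regulated kinases and the 3 EF-hand genes with the KEGG label CPK; the number after a name is its log2 fold change in salt over control. Genes with several rows have several reading frames, and the one raised kinase, CDPK 25 on TRINITY_DN5881_c1_g2, shows a kinase domain without an EF-hand.

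Of the 8 kinases named for calcium or calmodulin, 5 were lowered, 1 was raised and 2 were not called. Among all tested genes, 28.7% were lowered and 29.1% raised. The median change of the 8 was -0.60 on the log2 scale. The strongest fall was that of calcium/calmodulin-dependent protein kinase type IV (TRINITY_DN5992_c1_g1), in mammals a kinase switched on by calmodulin, which held 60.0, 59.6 and 54.1 CPM in the salt libraries, against 169.9, 139 and 133 CPM in the control libraries. All salt libraries lay within a narrow band far below the control level, a fall well beyond the spread between libraries (log2 fold change -1.35 ± 0.13 (SE), adjusted p = 0.000202). Type 1D of the same family (TRINITY_DN5183_c0_g2) held 99.7, 94.9 and 93.1 CPM in salt, and 141, 145 and 138 CPM in control. This smaller fall was also called, with tight groups (log2 fold change -0.56 ± 0.09 (SE), adjusted p = 0.00213).

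Calcium-dependent protein kinases, the plant and protist type with its own calcium sensor, divided by gene. CDPK 25 of Arabidopsis was the best match of 2 entries. The abundant one, TRINITY_DN5426_c1_g2, held 146, 189 and 162 CPM in the salt libraries, against 460.1, 361 and 399.7 CPM in the control libraries. Control replicate 1 was the highest of the 6 libraries and salt replicate 1 the lowest, and the gene was lowered (log2 fold change -1.30 ± 0.15 (SE), adjusted p = 0.000452). One of its 2 reading frames joins part of a kinase domain to 4 EF-hand positions. The other entry, TRINITY_DN5881_c1_g2, held 50.1, 52.8 and 51.1 CPM in the salt libraries, against 24.5, 24.7 and 24.8 CPM in the control libraries. All 3 salt libraries were about 2-fold above the control libraries with hardly any spread, and it was raised (log2 fold change 1.06 ± 0.10 (SE), adjusted p = 0.000217). Its frame carries a kinase hit and no EF-hand hit, so whether calcium binds it cannot be read from this table.

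The remaining calcium-dependent kinases were lower in salt in every library, by varying amounts. CDPK 1 (TRINITY_DN4845_c1_g3), which matched Plasmodium, held 13.2, 14.9 and 12.7 CPM in salt, and 33, 23.5 and 26.3 CPM in control. It was lowered about 2-fold (log2 fold change -1.02 ± 0.17 (SE), adjusted p = 0.00208). CDPK 3 (TRINITY_DN5379_c0_g1), in Arabidopsis a kinase of the guard cell and of salt acclimation, held 30.2, 39.5 and 36.4 CPM in salt, and 51.7, 58.8 and 54.4 CPM in control. Its fall was called (log2 fold change -0.64 ± 0.14 (SE), adjusted p = 0.00662), though not with library totals alone as the scaling (adjusted p = 0.0570).

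CDPK 11 (TRINITY_DN3258_c0_g1) held 38.8, 54.4 and 46.3 CPM in salt, and 59.7, 60.9 and 62.2 CPM in control. Groups did not overlap, but the adjusted p was 0.0520 in the fit used here and 0.0468 with the replicate block, and 0.0284 without salt replicate 2 (log2 fold change -0.39 ± 0.14, SE). CDPK 34 (TRINITY_DN5591_c0_g1), whose frame holds a kinase domain followed by 4 EF-hand positions, held 290.3, 291 and 266 CPM in salt, and 319, 295 and 300.2 CPM in control. Salt libraries were slightly lower without overlap, and the difference was not called (log2 fold change -0.11 ± 0.11 (SE), adjusted p = 0.411). Across the set, 6 genes had a kinase domain and an EF-hand in 1 frame: 2 were lowered (33.3%), 0 raised and 4 not called. The lowered share was near the 28.7% of all tested genes, of which 29.1% were raised. A further EF-hand gene with the KEGG label of this family, TRINITY_DN4134_c1_g1, has the kinase and the EF-hands in separate frames and was lowered (log2 fold change -1.12 ± 0.13 (SE), adjusted p = 0.000471); it held 36.1, 34.4 and 31.2 CPM in salt, and 84.2, 68.2 and 69 CPM in control.

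**Figure D4:**
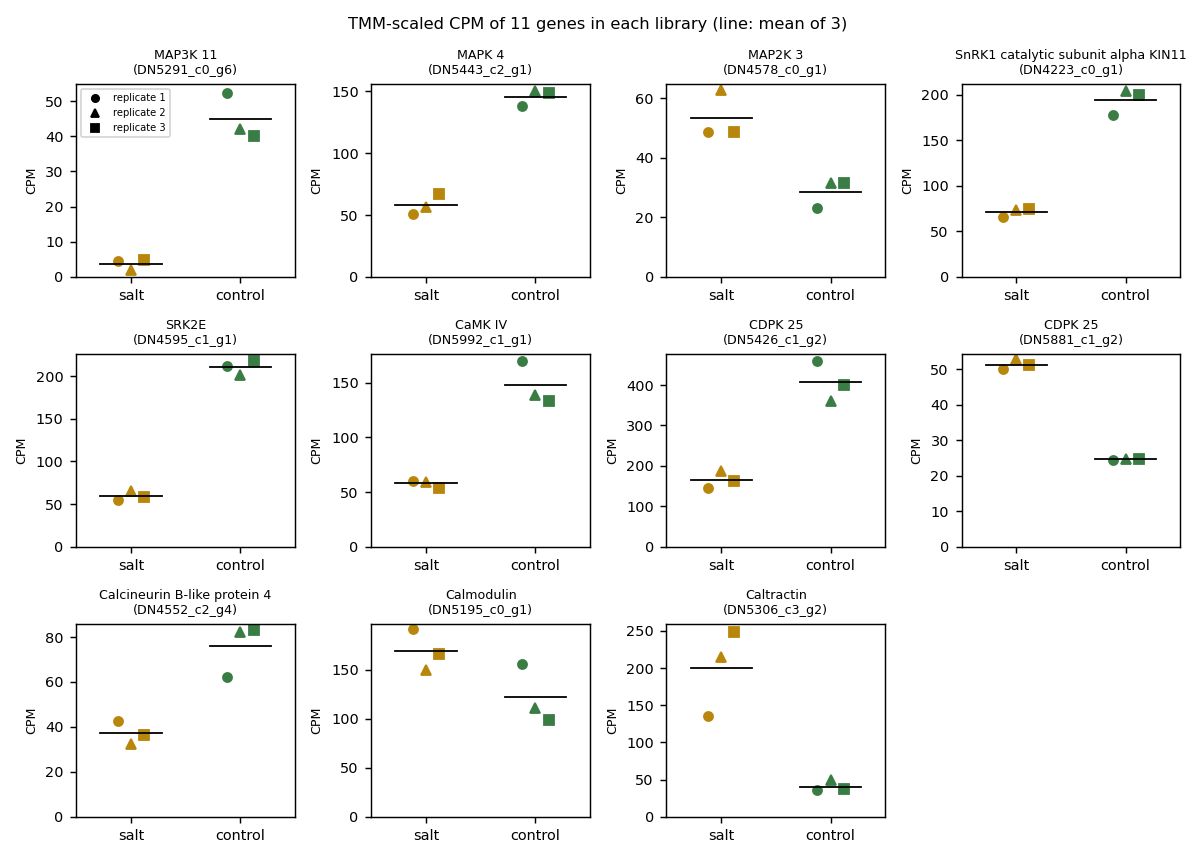
TMM-scaled CPM of 11 genes in each salt and control library; points are libraries, marker shapes are replicate numbers and lines are means of 3, on linear axes from 0. In 10 of the 11 genes the salt and control points do not overlap, and calmodulin is the exception. The rule for naming genes favours those without overlap, so this count does not describe the whole set. Among all tested genes, salt libraries lay all above control in 34.1% and all below in 32.6%.

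The CBL protein was lowered, and the kinases of the CBL-interacting class were not called. Calcineurin B-like protein 4 (TRINITY_DN4552_c2_g4), whose Arabidopsis counterpart SOS3 activates the kinase that drives sodium export, held 42.6, 32.3 and 36.3 CPM in the salt libraries, against 62.3, 82.4 and 83.1 CPM in the control libraries. The control libraries were all higher, replicate 1 the least so, and the gene was lowered (log2 fold change -1.03 ± 0.17 (SE), adjusted p = 0.00182). In the replicate 1 pair the log2 fold change was -0.55, against -1.26 in replicates 2 and 3. The CBL-interacting kinases (CIPK) 25 (TRINITY_DN4771_c2_g1) and 21 (TRINITY_DN4741_c1_g2) are of the class that CBL proteins switch on. CIPK 25 held 14.3, 15.3 and 14 CPM in salt, and 15.1, 16 and 16.4 CPM in control, and CIPK 21 held 23, 24.6 and 23.7 CPM in salt, and 27.6, 21.4 and 24.2 CPM in control. In both, salt and control libraries overlapped, and neither was called (log2 fold changes -0.12 ± 0.14 and -0.04 ± 0.14, SE).

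The 2 tested subunits of the SNF1 energy kinase were lowered, each as a single entry. The catalytic subunit KIN11 (TRINITY_DN4223_c0_g1) held 66.1, 73.5 and 74.4 CPM in the salt libraries, against 177, 204 and 199.8 CPM in the control libraries. Salt libraries were uniformly more than 2-fold below the control libraries, and the fall was among the best resolved in the set (log2 fold change -1.44 ± 0.11 (SE), adjusted p = 9.50e-05). The regulatory subunit beta-2 (TRINITY_DN5574_c1_g2), a scaffold of the same complex, held 176, 183 and 183 CPM in salt, and 243, 264 and 259 CPM in control. It fell less, with no overlap (log2 fold change -0.50 ± 0.10 (SE), adjusted p = 0.00472), and was not called with library totals alone as the scaling (adjusted p = 0.0586). The beta-2 entry holds 23.3% of the counts of its Trinity cluster. With the cluster summed it was called raised (log2 fold change 0.29, adjusted p = 0.0282).

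Of the 5 SRK2 kinases, 3 were lowered and 2 were not called, where 28.7% of all tested genes were lowered. SRK2E, in Arabidopsis the OPEN STOMATA 1 kinase of abscisic acid signalling, was the best match of 2 genes. TRINITY_DN4595_c1_g1 held 55.3, 65.6 and 58.6 CPM in the salt libraries, against 212, 201 and 217 CPM in the control libraries. Every salt library was more than 3-fold below every control library, and it had the smallest p of the kinases of this class (log2 fold change -1.81 ± 0.11 (SE), adjusted p = 4.47e-05). The other SRK2E gene, TRINITY_DN4595_c0_g6, held 109, 121 and 132 CPM in salt, and 115, 95.3 and 97.7 CPM in control. The groups overlapped through control replicate 1 and the difference was not called (log2 fold change 0.23 ± 0.13 (SE), adjusted p = 0.156), although it was, upward, without control replicate 1 (adjusted p = 0.0311), in replicates 2 and 3 alone (adjusted p = 0.00486) and with library totals alone (adjusted p = 0.0214) or upper-quartile factors (adjusted p = 0.0400) as the scaling.

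SRK2D was likewise matched by 2 genes. TRINITY_DN5577_c3_g3 held 32, 40.6 and 42 CPM in the salt libraries, against 121, 129.9 and 139.9 CPM in the control libraries. All its salt libraries lay below the control libraries and it was lowered (log2 fold change -1.77 ± 0.14 (SE), adjusted p = 0.000102), but with an effective length of 401 bases it is short for a kinase, and it has no Pfam hit. TRINITY_DN5747_c2_g3 held 26.5, 38.4 and 15.8 CPM in salt, and 21.6, 27.8 and 29.6 CPM in control, and its groups overlapped fully (log2 fold change 0.03 ± 0.31 (SE), adjusted p = 0.939). SRK2J (TRINITY_DN5745_c2_g13), also a short entry of 385 bases, held 73.1, 50.3 and 67.7 CPM in salt, and 173, 95.1 and 100.2 CPM in control. It was lowered (log2 fold change -0.94 ± 0.26 (SE), adjusted p = 0.0192), a call that ended without salt replicate 2 (adjusted p = 0.0738) or salt replicate 3 (adjusted p = 0.0542).

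Relatives named after the rice kinases of the same SnRK2 family were not among the 71, since their descriptions lack the words used for the choice. Of 12 SAPK genes, 11 were tested: 8 were lowered, 0 raised and 3 not called, where 28.7% of all tested genes were lowered. The median change of the SAPK genes, on the log2 scale, was -1.09. SAPK10 on TRINITY_DN5536_c1_g2 held 14.5, 12.2 and 13.7 CPM in the salt libraries, against 218, 171 and 176 CPM in the control libraries. Every salt library was more than 10-fold below every control library (log2 fold change -3.81 ± 0.15 (SE), adjusted p = 1.84e-05). SAPK6 on TRINITY_DN5747_c2_g2, an entry of 186 bases, held 26.2, 33.1 and 35.1 CPM in salt, and 155, 155 and 173 CPM in control. It was lowered too (log2 fold change -2.36 ± 0.14 (SE), adjusted p = 4.19e-05).

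In the MAP kinase cascade most genes of the upper tier were lowered, and the lower tiers were mixed. Of 10 MAP3 kinases, 7 were lowered and 3 not called, where 28.7% of all tested genes were lowered. The lowered TRINITY_DN5237_c0_g1 and TRINITY_DN5237_c0_g5 share a Trinity cluster, so the 7 may not all be separate genes. TRINITY_DN5183_c0_g3 shares a cluster with the lowered calcium/calmodulin-dependent protein kinase type 1D. The median change of the 10 was -0.92 on the log2 scale. The 7 lowered kinases had salt libraries below all control libraries, as had 32.6% of all tested genes. Their calls rest on the same libraries, so this is not separate support. The deepest fall was that of MAP3K 11 on TRINITY_DN5291_c0_g6, with 4.54, 1.94 and 4.66 CPM in the salt libraries, against 52.2, 42.2 and 40.0 CPM in the control libraries. Salt libraries held a small remainder of the control level (log2 fold change -3.59 ± 0.34 (SE), adjusted p = 0.000194). The entry holds 4.31% of the counts of its Trinity cluster, and with the cluster summed the log2 fold change was -0.54. A MAP3K on TRINITY_DN5036_c1_g3 held 19.6, 17.9 and 17 CPM in salt, and 41.8, 47.9 and 48.4 CPM in control. It was lowered with narrow groups (log2 fold change -1.34 ± 0.13 (SE), adjusted p = 0.000194).

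MAP3K 9 was the best match of 3 genes, each lowered. TRINITY_DN5237_c0_g1 held 41.3, 37.9 and 37.6 CPM in salt, and 80.3, 97.7 and 103 CPM in control. Its salt libraries were clearly separated from the control libraries (log2 fold change -1.27 ± 0.13 (SE), adjusted p = 0.000273). The other two, TRINITY_DN5754_c1_g1 and TRINITY_DN5183_c0_g3, had log2 fold changes of -1.01 ± 0.14 and -1.02 ± 0.15 (SE), with adjusted p-values of 0.00103 and 0.00109. A second MAP3K 11 (TRINITY_DN5528_c3_g3) held 167, 158 and 116 CPM in salt, and 360.0, 208 and 216 CPM in control. Control replicate 1 was far above its own group, and the call (log2 fold change -0.83 ± 0.25 (SE), adjusted p = 0.0261) ended without salt replicate 2 (adjusted p = 0.0660) or salt replicate 3 (adjusted p = 0.0966). Many names of this tier come from rat and mouse kinases, and the match is to a kinase domain shared by several plant families.

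The most abundant MAP3K did not pass the test. MAP3K 12 on TRINITY_DN5744_c0_g5, at a mean of 147 FPKM, held 944, 864 and 811 CPM in the salt libraries, against 1097, 663 and 718 CPM in the control libraries. Control replicate 1 was the highest of the 6 and the other control libraries the lowest (log2 fold change 0.08 ± 0.22 (SE), adjusted p = 0.771). The gene was called higher in salt without control replicate 1 (adjusted p = 0.0357) and in replicates 2 and 3 alone (adjusted p = 0.0239), while in the replicate 1 pair its log2 fold change was -0.22. NPK1 (TRINITY_DN5200_c2_g2), in tobacco a MAP3K of cytokinesis and stress, held 31.3, 43.8 and 45.4 CPM in salt, and 36.4, 64.4 and 57 CPM in control. It was not called (adjusted p = 0.212) except with the replicate block (adjusted p = 0.0488), in replicates 2 and 3 alone (adjusted p = 0.00987) and without control replicate 1 (adjusted p = 0.0257), each time lower in salt. MAP3K 7 (TRINITY_DN5407_c0_g2) was likewise called lower without control replicate 1 (adjusted p = 0.0216) and in replicates 2 and 3 alone (adjusted p = 0.0430), and not in the fit on all libraries (adjusted p = 0.106).

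The single MAP2K was raised. MAP2K 3 (TRINITY_DN4578_c0_g1), the kinase kinase of Arabidopsis known from jasmonate and light signalling, held 48.7, 62.7 and 48.8 CPM in the salt libraries, against 23, 31.4 and 31.5 CPM in the control libraries. Every salt library exceeded every control library (log2 fold change 0.90 ± 0.18 (SE), adjusted p = 0.00441).

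MAP kinase 4 (TRINITY_DN5443_c2_g1), given the label of Arabidopsis MPK6, a stress and immunity kinase, by KEGG, held 50.7, 56.6 and 66.8 CPM in the salt libraries, against 138, 151 and 149 CPM in the control libraries. Every salt library was more than 2-fold below every control library, and it was lowered (log2 fold change -1.33 ± 0.13 (SE), adjusted p = 0.000227).

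MAP kinase 15 (TRINITY_DN4645_c2_g1) held 182, 164 and 186 CPM in salt, and 306, 220.2 and 218 CPM in control. Control replicate 1 stood above the rest, and the fall (log2 fold change -0.48 ± 0.16 (SE), adjusted p = 0.0369) was not called without any 1 of the salt libraries, at adjusted p-values from 0.0782 to 0.133, nor with library totals alone (adjusted p = 0.0920) or no filter on low counts (adjusted p = 0.0858). MAP kinase 19 (TRINITY_DN4682_c0_g2) held 72.8, 92 and 77.3 CPM in salt, and 73.4, 69.3 and 76.5 CPM in control. The groups overlapped through salt replicate 1, the other salt libraries lay above the control libraries, and no difference was called (log2 fold change 0.14 ± 0.12 (SE), adjusted p = 0.351); in the replicate 1 pair the log2 fold change was -0.011. MKP1, the phosphatase that in Arabidopsis switches MAP kinases off, was present on TRINITY_DN4453_c0_g1 at 13.3, 18.6 and 12.6 CPM in salt, and 4.03, 12.6 and 11.2 CPM in control. Control replicate 1 was the lowest library and control replicate 2 lay beside salt replicate 3, and no difference was called (log2 fold change 0.68 ± 0.41 (SE), adjusted p = 0.198).

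Calmodulin-binding transcription activators (CAMTA) bind DNA through a CG-1 domain and are switched by calcium. Of 4 such genes, 3 were lowered and 1 was not called, where 28.7% of all tested genes were lowered, and the median change, on the log2 scale, was -0.70. CAMTA 2 (TRINITY_DN5778_c1_g1) held 78.1, 50.9 and 59.9 CPM in the salt libraries, against 136, 128 and 132 CPM in the control libraries. CAMTA 1 on TRINITY_DN5869_c3_g9 held 19.8, 21.1 and 23.7 CPM in salt, and 42.9, 38.5 and 47.3 CPM in control. In both, the salt libraries lay well below the control libraries, and both were lowered (log2 fold change -1.06 ± 0.17 (SE), adjusted p = 0.00159 for CAMTA 2, and -0.99 ± 0.14, SE, with adjusted p = 0.000881 for CAMTA 1). A further CAMTA 1 (TRINITY_DN5708_c1_g1), whose KEGG label names another enzyme and whose closest match is a cyanobacterial protein, fell slightly (log2 fold change -0.40 ± 0.12 (SE), adjusted p = 0.0243). That call ended in 5 of the 6 fits that left out a library, with adjusted p-values from 0.0570 to 0.0925, and held without control replicate 1; it also ended with library totals alone (adjusted p = 0.237), with upper-quartile factors (adjusted p = 0.0843) and with no filter on low counts (adjusted p = 0.0877).

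Calmodulin-interacting protein 111 (TRINITY_DN4711_c2_g2), an AAA-type ATPase that binds calmodulin in Arabidopsis, held 66.6, 67.5 and 60.7 CPM in the salt libraries, against 48.1, 37.1 and 43.4 CPM in the control libraries. Unlike the transcription activators it was higher in all salt libraries and was raised (log2 fold change 0.60 ± 0.13 (SE), adjusted p = 0.00713).

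**Figure D5:**
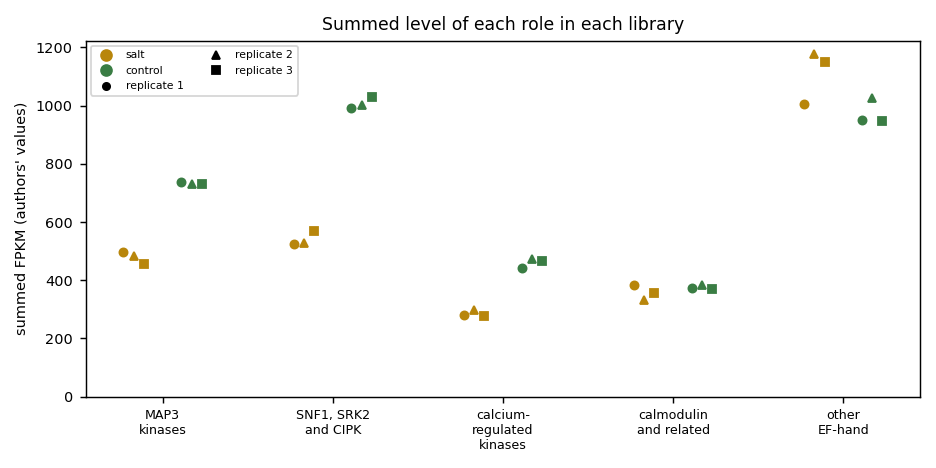
Sum of the authors' FPKM values over the genes of each role in each library, salt left of control; marker shapes are replicate numbers and the axis starts at 0. The 3 kinase roles with the clearest separation are the MAP3 kinases, the SNF1, SRK2 and CBL-interacting kinases and the calcium-regulated kinases, whose salt sums all lie below the control sums.

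Levels were summed over the genes of a role in the authors' FPKM. SNF1, SRK2 and CBL-interacting kinases summed to 525, 527 and 570.2 in the salt libraries, against 991, 1001 and 1030.0 in the control libraries. MAP3 kinases summed to 497, 483 and 455 in the salt libraries, against 737, 730.1 and 729 in the control libraries. Calcium-regulated kinases summed to 279.6, 298 and 278 in the salt libraries, against 443, 473 and 467 in the control libraries. In these 3 roles every salt sum was lower than every control sum. Calmodulin and its related proteins summed to 382, 331 and 355 in the salt libraries, against 372, 383 and 369 in the control libraries, and the groups overlapped. The other EF-hand proteins summed to 1005, 1178 and 1149 in the salt libraries, against 951, 1027 and 948 in the control libraries, with overlap through salt replicate 1 and control replicate 2. FPKM carries no TMM factor, and short entries such as SRK2J weigh heavily in it, at 192, 139 and 193 FPKM in salt and 375, 254 and 258 FPKM in control.

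Genes around these sensors were counted from lists of description words. Of 11 tested calcium channels, pumps and exchangers, 4 were raised (36.4%), 3 lowered (27.3%) and 4 not called, shares near the 29.1% and 28.7% of all genes. Endoplasmic reticulum calcium ATPase 1 (TRINITY_DN5877_c0_g2), the pump that loads calcium into that store, held 304, 344 and 341 CPM in the salt libraries, against 143, 135 and 129.9 CPM in the control libraries. Its salt libraries were all more than 2-fold above the control libraries (log2 fold change 1.27 ± 0.11 (SE), adjusted p = 0.000144). A relative, calcium ATPase 3 of the same membrane (TRINITY_DN5213_c1_g7), was the most abundant of the list by FPKM and was not called (log2 fold change 0.28 ± 0.11 (SE), adjusted p = 0.0732). It was called raised in replicates 2 and 3 alone (adjusted p = 0.0146), without control replicate 1 (adjusted p = 0.0143), with library totals alone (adjusted p = 0.00709) and with upper-quartile factors (adjusted p = 0.0145), and lowered with its cluster summed (log2 fold change -0.44, adjusted p = 0.00821). With library totals alone as the scaling the split of the list was 6 raised to 1 lowered. That scaling also moved the split over all genes, to 4064 raised and 2658 lowered from 3331 and 3285.

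Of 9 tested genes for calcium-binding proteins without EF-hands and for phosphoinositide kinases, 5 were lowered (55.6%), 1 was raised (11.1%) and 3 were not called. The lowered and raised shares among all tested genes were 28.7% and 29.1%. Phosphatidylinositol 4-kinase alpha 1 (TRINITY_DN5168_c0_g1), which makes the first phosphoinositide of the signalling lipids, held 23.1, 22.8 and 22.4 CPM in salt, and 55.4, 52.9 and 52 CPM in control. It was lowered with hardly any spread (log2 fold change -1.23 ± 0.10 (SE), adjusted p = 0.000132). Phosphatidylinositol 4-kinase gamma 6 (TRINITY_DN4249_c0_g1), the most abundant of the list, was lowered as well (log2 fold change -0.81 ± 0.17 (SE), adjusted p = 0.00537). Calnexin (TRINITY_DN4085_c0_g1), a calcium-binding folding chaperone of the endoplasmic reticulum, was the 1 raised gene, with 441, 498 and 479.7 CPM in salt, and 203, 143 and 132 CPM in control (log2 fold change 1.57 ± 0.19 (SE), adjusted p = 0.000472).

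Of 8 tested entries named as partners of the TOR kinase and of energy signalling, 1 was raised, 1 lowered and 6 not called. The 6 include a 14-3-3 entry (TRINITY_DN4153_c0_g5) and 3 entries of the same name in its Trinity cluster, so they may not be separate genes. Among all tested genes, 57.8% were called in either direction. TAP46 (TRINITY_DN4670_c0_g2), a phosphatase 2A regulator that TOR phosphorylates in plants, held 6.76, 6.04 and 7.36 CPM in salt, and 26.8, 19.8 and 22.1 CPM in control. It was the lowered one (log2 fold change -1.77 ± 0.18 (SE), adjusted p = 0.000261). LST8 (TRINITY_DN5542_c1_g3), a core subunit of the TOR complex, was the raised one (log2 fold change 0.41 ± 0.11 (SE), adjusted p = 0.0197), a call that ended without control replicate 2 or 3 or salt replicate 1, at adjusted p-values from 0.0523 to 0.0628. RAPTOR (TRINITY_DN5017_c3_g3), the subunit that brings substrates to TOR, was not called (log2 fold change -0.18 ± 0.11 (SE), adjusted p = 0.187). The 14-3-3 entry of highest FPKM, TRINITY_DN4153_c0_g5, has an effective length of 4 bases, so its FPKM divides by a very short length, and it was not called (log2 fold change 0.22 ± 0.50 (SE), adjusted p = 0.734) except, as raised, in replicates 2 and 3 alone (adjusted p = 0.0469).

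The table's genes come from an assembly without a genome, and similar kinases can share reads. The sources used here do not say how such reads were counted. Of the 65 tested genes, 55 share a Trinity cluster, the identifier without its last part, with other entries, and in 1 case another entry had the same name. When counts were summed over a cluster, the fold changes of some called genes turned. Calmodulin-interacting protein 111 (to -0.89, adjusted p = 0.00348), calcium ATPase 1 (to -1.49, adjusted p = 5.70e-05) and LST8 (to -0.60, adjusted p = 0.00390) were then called lowered. The SNF1 subunit beta-2 (to 0.29, adjusted p = 0.0282) was called raised. CDPK 25 on TRINITY_DN5881_c1_g2 (to -0.13), TRINITY_DN4877_c3_g3 (to 0.30) and SAPK10 (to 0.22) turned and were no longer called. The calls ended without a turn for SRK2D on TRINITY_DN5577_c3_g3, SRK2J, the MAP3K on TRINITY_DN5036_c1_g3, phosphatidylserine decarboxylase 2, the phosphatase 2A subunit, the malate dehydrogenase, TRINITY_DN4999_c0_g1 and TRINITY_DN4900_c3_g1. The change was over 1.5 times smaller but still called for the deepest fall, MAP3K 11 on TRINITY_DN5291_c0_g6 (-0.54), and for CDPK 25 on TRINITY_DN5426_c1_g2 (-0.44), calcineurin B-like protein 4 (-0.33), MAP3K 9 on TRINITY_DN5754_c1_g1 (-0.56), SAPK6 (-1.54), TRINITY_DN5704_c0_g3 (0.42) and TRINITY_DN4366_c2_g2 (0.28).

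Summed clusters also gave calls that single entries did not. MAP3K 7 (-1.78), CAMTA 1 on TRINITY_DN5549_c4_g4 (-1.06), TRINITY_DN3638_c0_g2 (-0.99) and CDPK 34 (-0.26) were then called lower, and MAP kinase 19 (0.38) higher. SRK2E on TRINITY_DN4595_c0_g6 (-0.54), SRK2D on TRINITY_DN5747_c2_g3 (-1.54) and calcium ATPase 3 (-0.44) turned and were called lower. The other entries in these clusters mostly carry other descriptions or none. CDPK 11 was called lower in the summed fit as well (-0.40, adjusted p = 0.0404). It is alone in its cluster, so no counts were added to it.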

How the data were processed

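TRIzol was used to extract total RNA (per the labels' protocols), which was then sequenced; the labels name Illumina in one place and a Proton procedure in another, and the aligner and counter are not named. Read counts per assembled gene were deposited without normalization, per the file headers. The same table holds FPKM per library and per group as computed by the authors, and the authors' log2 fold changes and p-values, which were not used. Identifiers begin with TRINITY, the prefix of a de novo assembler. No sequence or genome was used here.

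The test was edgeR's quasi-likelihood test (edgeR 4.0.16, R 4.3.3) with TMM factors, filterByExpr (minimum count 10), condition as the single term over 6 libraries, and Benjamini-Hochberg adjustment over all 11438 genes at 0.05. Every adjusted p given is from edgeR's quasi-likelihood test, in this fit unless another library set, scaling, filter, block or cluster sum is named beside it. Standard errors are the log2 fold change over the root of the F statistic. CPM uses the effective library sizes of the fit; a single count equals 0.0436 to 0.0629 CPM and the limit that 0 counts allow (3 counts) equals 0.131 to 0.189 CPM, for counting error only. EF-hand positions are hits to single-hand Pfam models whose midpoints lie over 15 residues apart. Effective length was computed from counts and FPKM. The procedure was tested on simulated counts.

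The genes, roles and lists were chosen with earlier results of these data known. Named genes follow a rule: per role, the smallest p, the highest mean FPKM, and the largest called rise and fall without overlap; the 10 largest such rises and falls; and per list the smallest p and highest FPKM. Every one of the 71 genes could be named, and genes of the lists beyond this rule (calnexin, LST8, RAPTOR) were chosen after their values were seen. Some single genes that entered the counts are not reported here.

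Libraries of the same replicate number deviated together from their group means across genes (correlations 0.373, 0.161 and 0.220 for replicates 1, 2 and 3). This met the criterion of 0.1 for a paired check. Salt replicate 3 went further with control replicate 2 (0.293), and salt replicate 2 with control replicate 3 gave 0.101. Pairs of replicate 1 with another number were all negative, so only replicate 1 stood apart as a pair. What the numbers mark is not stated in the labels. Counts of replicates differed by more than sampling noise (chi-square per gene 5.43 or more), so none was a duplicate. Alternatives were DESeq2 1.42.0 (size factors and Wald test), upper-quartile factors, library totals, other filters, a minimum effective length of 300 bases, summed clusters, a 2-fold minimum, the replicate block, replicate subsets and leaving out each library.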

Additional observations from a re-analysis of the deposited data

How the results depend on the processing

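The replicate block, the other alternatives and each library left out in turn kept lowered genes more numerous than raised ones among the 65 tested. Left out 1 at a time, the libraries gave 9 to 14 raised and 23 to 31 lowered genes; of the 32 lowered, 23 were called in each of the 6 such fits, and of the 11 raised, 9. Requiring 2-fold left 6 raised and 18 lowered, against 1814 and 2020 over all genes, and summing Trinity clusters left 1762 and 1738 called clusters, of the fewer tested. The median log2 fold change of these genes was -0.22 with library totals alone, a scaling that also moved the median of all genes, by 0.18. With clusters summed their median was -0.24, and the cause of that change was not tested. With the replicate block 62 of the 65 genes had the same call, calmodulin, CDPK 11 and NPK1 were added, and no other call changed. DESeq2's Wald test gave 63 of the 65 the same call. Depth limits the 6 untested genes, which had at most 10 counts in a library.

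Summing the entries of a Trinity cluster turned the log2 fold change of several genes called before. The change went to -0.89 for calmodulin-interacting protein 111, -1.49 for calcium ATPase 1, -0.60 for LST8 and 0.29 for beta-2, each called in the new direction. For CDPK 25 (TRINITY_DN5881_c1_g2) it went to -0.13, for TRINITY_DN4877_c3_g3 to 0.30 and for SAPK10 to 0.22, and none of these was then called. Summing also turned uncalled genes, to -0.54 for SRK2E (TRINITY_DN4595_c0_g6), -1.54 for SRK2D (TRINITY_DN5747_c2_g3), -0.44 for calcium ATPase 3 and 0.021 for RAPTOR. All other turns were in uncalled genes. Library totals alone gave 0.012 for RAPTOR, 0.077 for CDPK 34, 0.061 for CIPK 25, 0.15 for CIPK 21, and 0.049, 0.010, 0.080 and 0.12 for the undescribed TRINITY_DN5259_c0_g1, TRINITY_DN3638_c0_g2, TRINITY_DN5649_c1_g1 and TRINITY_DN4991_c1_g1. Upper-quartile factors gave 0.062 for CIPK 21 and 0.030 for TRINITY_DN4991_c1_g1, and no filter gave 0.0012 for CIPK 21. The replicate 1 pair gave -0.082 for SRK2E (TRINITY_DN4595_c0_g6), -0.011 for MAP kinase 19, -0.22 for MAP3K 12 and 0.073 for TRINITY_DN4991_c1_g1. Replicates 2 and 3 gave 0.037 for TRINITY_DN5649_c1_g1, -0.071 for SRK2D (TRINITY_DN5747_c2_g3) and 0.092 for CIPK 21, and the replicate block -0.036 for that SRK2D. With 1 library left out, the range was -0.086 to 0.37 for phosphorylase b kinase gamma, -0.060 to 0.35 for MAP3K 12, -0.30 to 0.32 for SRK2D (TRINITY_DN5747_c2_g3), -0.14 to 0.013 for TRINITY_DN4991_c1_g1, -0.13 to 0.066 for CIPK 21 and -0.21 to 0.93 for the short 14-3-3 entry.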
